A study of Mus musculus with 11 samples.

Results

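Ferroptosis and NRF2 antioxidant genes are a group of 10 among the 26283 genes measured in PyMT mammary tumors: *Gpx4*, *Slc7a11*, *Acsl4*, *Aifm2*, *Gclc*, *Gclm*, *Nqo1*, *Txnrd1*, *Nfe2l2* and *Keap1*. They were taken by gene name, and all 10 passed the filter on low counts. Ferroptosis is a form of cell death in which iron drives the peroxidation of membrane phospholipids. ACSL4 supplies these membranes with oxidizable fatty acids, whereas GPX4 reduces lipid peroxides with glutathione, SLC7A11 imports the cystine from which glutathione is made, and AIFM2 (FSP1) regenerates ubiquinol as a separate defence. The transcription factor NRF2, encoded by *Nfe2l2* and held in check by KEAP1, drives genes for glutathione synthesis, thioredoxin reduction and quinone detoxification. PCBP1, besides binding poly-cytosine RNA and DNA, is known as a chaperone that delivers cytosolic iron to ferritin.

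Tumors came from 18-week-old C57BL/6 mice carrying MMTV-PyMT, an oncogene of polyomavirus switched on in mammary tissue, together with MMTV-Cre. The 6 PyMT *Pcbp1*–/– tumors had *Pcbp1*(fl/fl) alleles and the 5 PyMT *Pcbp1*+/+ tumors, the controls, non-floxed *Pcbp1*(wt/wt) alleles, so that both groups expressed the oncogene and the recombinase. MMTV-Cre is designed to remove *Pcbp1* in mammary epithelial cells, and how far other cells in the bulk RNA retain the gene was not measured here. Estimated counts per tumor summed to between 11239900 and 14092200 in PyMT *Pcbp1*–/– and between 10543200 and 11411800 in PyMT *Pcbp1*+/+ tumors. The mean total was higher in the former (exact permutation test of the difference in means, two-sided, p = 0.0173), although the ranges overlapped. Levels are given in CPM, the share of a gene in the counts of its tumor on a scale common to all tumors, where 3 counts corresponded to between 0.213 and 0.285 CPM.

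*Pcbp1* itself (ENSMUSG00000051695.6, GRCm38 chr6:86524492-86526321, minus strand) lay between 15.4 and 33.6 CPM, with a median of 20.9 CPM, in PyMT *Pcbp1*–/– tumors and at 268, 271, 225, 220 and 259 CPM in control replicates 1 to 5. Its log2 fold change of -3.43 (95% interval -3.84 to -3.02, edgeR adjusted p = 4.72e-06) went with the genotype label of each tumor. Luminal epithelial markers summed to between 1374 and 2872 CPM over the 11 tumors, with all 10 of them detected in these mammary tumors. In bulk tissue, fewer cells of a type and less RNA per cell cannot be told apart, which holds for each difference given here.

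None of the 10 genes passed an adjusted p of 0.05 in edgeR, where 2.27% of the 19232 genes tested did, 1.66% lower and 0.608% higher in PyMT *Pcbp1*–/– tumors. At an unadjusted p under 0.05 the count was 1, *Gclm*, against 18.7% of all genes tested. This count was 4 in limma-voom with sample quality weights, 3 without PyMT *Pcbp1*+/+ replicate 2 and 2 without PyMT *Pcbp1*–/– replicate 1. For these fits the matching share over all genes was not computed, so that the change in count cannot be read as a result about the 10 genes. At an adjusted p under 0.05 the same fits called 11.2%, 2.78% and 1.64% of all genes tested, in this order. DESeq2 and limma-voom with sample quality weights each called 1 gene, again *Gclm*, where they called 6.32% and 11.2% of all genes tested. Limma on log2 CPM called 0 of the 10 and, with a pseudocount of 1 or 0.1, 1.66% or 1.67% of all genes tested. A single call among 10 is thus near the share over all genes. In none of the 10 did the groups separate without overlap, which 3.29% of the genes tested did. Of the 10 log2 fold changes 5 were positive and 5 negative, with a median of 0.03 beside 0.00 over all genes tested. The 95% intervals of 9 genes lay within a 2-fold change in either direction, all but that of *Slc7a11*, and those of 5 within a 1.5-fold change.

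**Figure D1:**
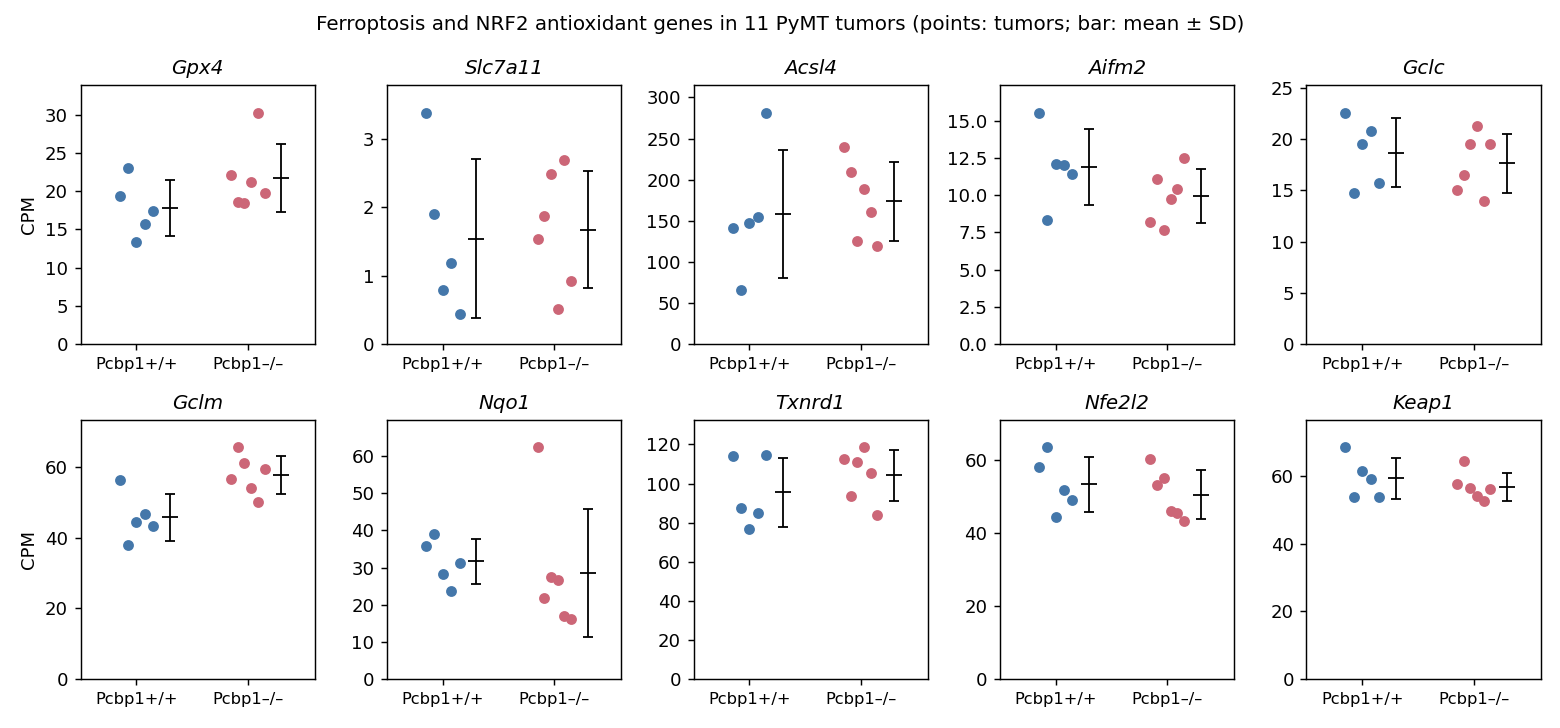
CPM (vertical axis, from 0) of each of the 10 genes in PyMT *Pcbp1*+/+ (blue, n = 5) and PyMT *Pcbp1*–/– tumors (red, n = 6); points are tumors and bars the mean ± SD. The groups overlap in every panel, and *Nqo1* has a single high PyMT *Pcbp1*–/– tumor at 62.4 CPM.

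The gene that came closest to the threshold was *Gclm*, the modifier subunit of glutamate-cysteine ligase, the enzyme that catalyses the rate-limiting step of glutathione synthesis. *Gclm* (ENSMUSG00000028124.15, GRCm38 chr3:122245557-122270732, plus strand) lay between 49.96 and 65.5 CPM, with a median of 57.9 CPM, in PyMT *Pcbp1*–/– tumors, and at 56.3, 37.8, 44.5, 46.8 and 43.3 CPM in control replicates 1 to 5. All 6 PyMT *Pcbp1*–/– tumors were above the mean of the controls, and only PyMT *Pcbp1*+/+ replicate 1 reached into their range. The log2 fold change was 0.34 (95% interval 0.13 to 0.55, edgeR adjusted p = 0.0932), a 1.26-fold difference that missed the threshold. It passed in DESeq2 (adjusted p = 0.0253) and in limma-voom with sample quality weights (adjusted p = 0.0362), and over the 22 alternatives its adjusted p lay between 0.0253 and 0.224.

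The *Gclm* locus also holds an annotated pseudogene on the same strand, RP23-71G16.1, which shares 492 bases with it, and RP23-71G16.2 on the opposite strand, which shares 14775 bases of its span. These were nearly as abundant, at a mean of 40.3 CPM for RP23-71G16.1 and 39.4 CPM for RP23-71G16.2 over the 11 tumors. The log2 fold change was 0.26 for RP23-71G16.1 (95% interval -0.03 to 0.54) and 0.24 for RP23-71G16.2 (95% interval 0.0011 to 0.48), neither past the adjusted threshold. How reads were divided among these overlapping genes is not given in the sources used here, so that the level of *Gclm* carries this uncertainty. Other members overlap annotated genes of lower abundance, *Keap1* with the antisense gene RP23-186O3.5 at 5.90 CPM, *Txnrd1* with *Eid3* at 7.13 CPM and *Aifm2* with *H2afy2* at 2.38 CPM. *Slc7a11* shares 232 bases with the pseudogene RP23-235F22.1, at a mean of 0.325 CPM and up to 0.750 CPM, and 4002 bases with the unclassified entry ENSMUSG00000103907.1, at 0.132 CPM, both on its own strand and not small beside its own level given below.

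The catalytic subunit of the same ligase, *Gclc* (ENSMUSG00000032350.9, GRCm38 chr9:77754535-77794485, plus strand), lay between 14.0 and 21.3 CPM, with a median of 17.99 CPM, in PyMT *Pcbp1*–/– tumors and at 22.6, 14.7, 19.5, 20.8 and 15.7 CPM in control replicates 1 to 5, so that the ranges nearly coincided. The log2 fold change was -0.08 (95% interval -0.38 to 0.23, edgeR adjusted p = 0.801). Whether the subunits differed from each other was not tested, and their intervals overlap.

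Among the genes that act on lipid peroxides, *Gpx4* (ENSMUSG00000075706.10, GRCm38 chr10:80047166-80056439, plus strand) encodes the glutathione-dependent selenoenzyme. It lay between 18.4 and 30.2 CPM in PyMT *Pcbp1*–/– tumors, with a median of 20.5 CPM, and at 19.4, 23.0, 13.3, 15.7 and 17.4 CPM in control replicates 1 to 5. All 6 PyMT *Pcbp1*–/– tumors exceeded the mean of the controls, yet PyMT *Pcbp1*+/+ replicates 1 and 2 lay within their range. The log2 fold change of *Gpx4* was 0.30 (95% interval -0.05 to 0.64, edgeR adjusted p = 0.341), and without PyMT *Pcbp1*–/– replicate 5, the highest tumor, it was 0.17. *Aifm2* (ENSMUSG00000020085.15, GRCm38 chr10:61715263-61739260, plus strand), the ubiquinone reductase FSP1, lay between 7.65 and 12.5 CPM in PyMT *Pcbp1*–/– tumors, with a median of 10.1 CPM, and at 15.5, 8.35, 12.1, 12.03 and 11.4 CPM in control replicates 1 to 5. Here 5 of 6 PyMT *Pcbp1*–/– tumors were below the mean of the controls, with a log2 fold change of -0.25 (95% interval -0.61 to 0.10, edgeR adjusted p = 0.436).

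*Slc7a11* and *Acsl4*, one protective and one promoting lipid peroxidation, varied most from tumor to tumor beside *Nqo1*. *Slc7a11* (ENSMUSG00000027737.10, GRCm38 chr3:49892526-50443614, minus strand), the cystine transporter of system xc–, was scarce, with between 5 and 38 counts per tumor. It lay between 0.512 and 2.70 CPM in PyMT *Pcbp1*–/– tumors, with a median of 1.71 CPM, and at 3.38, 1.90, 0.789, 1.18 and 0.447 CPM in control replicates 1 to 5. The highest and the lowest of the 11 tumors were both controls, 7.57-fold apart. Its log2 fold change of 0.15 had the widest interval of the 10 genes (-0.91 to 1.21, edgeR adjusted p = 0.899), which left out a 2-fold decrease but not a 2-fold increase. *Acsl4* (ENSMUSG00000031278.12, GRCm38 chrX:142317993-142390535, minus strand), the ligase that activates polyunsaturated fatty acids, ranged from 119 to 240 CPM in PyMT *Pcbp1*–/– tumors, with a median of 174 CPM, and stood at 141, 66.2, 148, 155 and 281 CPM in control replicates 1 to 5. Again both extremes were controls, and the log2 fold change was 0.11 (95% interval -0.56 to 0.78, edgeR adjusted p = 0.877). The sign of *Slc7a11* and *Acsl4* depended on single tumors: *Slc7a11* was at -0.073 without PyMT *Pcbp1*+/+ replicate 5 and -0.057 without PyMT *Pcbp1*–/– replicate 5, and *Acsl4* at -0.081 without PyMT *Pcbp1*+/+ replicate 2.

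Of the NRF2 target genes, *Nqo1* (ENSMUSG00000003849.8, GRCm38 chr8:107388225-107403206, minus strand) encodes a quinone reductase often used as a readout of NRF2 activity. It lay between 16.2 and 62.4 CPM in PyMT *Pcbp1*–/– tumors, with a median of 24.3 CPM, and at 35.8, 39.2, 28.2, 23.8 and 31.3 CPM in control replicates 1 to 5. PyMT *Pcbp1*–/– replicate 1 stood alone at the top, and the other 5 were below the mean of the controls. The log2 fold change was -0.16 (95% interval -0.82 to 0.51, edgeR adjusted p = 0.825) and, without that tumor, -0.53 (adjusted p = 0.150). It was nearer 0 without PyMT *Pcbp1*–/– replicate 6 (-0.039), 5 (-0.044) or 2 (-0.081) or PyMT *Pcbp1*+/+ replicate 2 (-0.070), and farther from 0 without PyMT *Pcbp1*+/+ replicate 4 (-0.25) and in limma on log2 CPM (-0.28 and -0.29 with a pseudocount of 1 and 0.1). *Txnrd1* (ENSMUSG00000020250.10, GRCm38 chr10:82833951-82897712, plus strand), cytosolic thioredoxin reductase, lay between 83.6 and 118 CPM in PyMT *Pcbp1*–/– tumors, with a median of 108 CPM, and at 114, 87.3, 76.7, 84.9 and 115 CPM in control replicates 1 to 5. The controls fell into a high pair, replicates 1 and 5, and a lower remainder, and the log2 fold change was 0.13 (95% interval -0.15 to 0.40, edgeR adjusted p = 0.640). With single tumors left out it lay between 0.072 (without PyMT *Pcbp1*+/+ replicate 4) and 0.23 (without PyMT *Pcbp1*+/+ replicate 5), and it was 0.26 in limma-voom with sample quality weights (adjusted p = 0.150).

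The regulators themselves varied little. *Nfe2l2* (ENSMUSG00000015839.6, GRCm38 chr2:75675513-75704641, minus strand), encoding NRF2, lay between 43.4 and 60.2 CPM in PyMT *Pcbp1*–/– tumors, with a median of 49.5 CPM, and at 58.2, 63.4, 44.5, 51.8 and 49.0 CPM in control replicates 1 to 5, with a log2 fold change of -0.08 (95% interval -0.30 to 0.14, edgeR adjusted p = 0.723). *Keap1* (ENSMUSG00000003308.15, GRCm38 chr9:21229730-21239361, minus strand), the adaptor that presents NRF2 for degradation, lay between 52.6 and 64.5 CPM in PyMT *Pcbp1*–/– tumors, with a median of 56.4 CPM, and at 68.5, 53.9, 61.6, 59.2 and 53.8 CPM in control replicates 1 to 5, with a log2 fold change of -0.06 (95% interval -0.24 to 0.11, edgeR adjusted p = 0.720). The ranges of both genes overlapped almost entirely. NRF2 is regulated mainly through protein stability, which transcript levels do not measure. Within groups, the SD of log2(CPM + 0.5) was 0.11 for *Keap1* and 0.16 for *Nfe2l2*, 0.54 for *Nqo1*, 0.59 for *Acsl4* and 0.68 for *Slc7a11*, beside a median of 0.27 over all genes tested.

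Levels per kilobase used the union of all exons annotated for a gene in GENCODE vM39, matched by Ensembl identifier. Such a length can exceed that of any single transcript, so that the order below holds for these lengths only. Per kilobase of exon, *Acsl4* was the most abundant at 28.0 ± 10.1 CPM per kilobase (SD, n = 11). *Txnrd1* followed at 14.1 ± 2.14 CPM per kilobase, below *Acsl4* in 10 of 11 tumors. *Gpx4*, *Nqo1*, *Keap1* and *Nfe2l2* had means between 9.49 and 11.5 CPM per kilobase and changed places from tumor to tumor, *Gpx4* being above *Nqo1* in 6 of 11 tumors, so that their order is not beyond the spread. *Gclm* at 6.57, *Gclc* at 2.89, *Aifm2* at 1.08 and *Slc7a11* at 0.104 CPM per kilobase stood in this order in all 11 tumors.

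**Figure D2:**
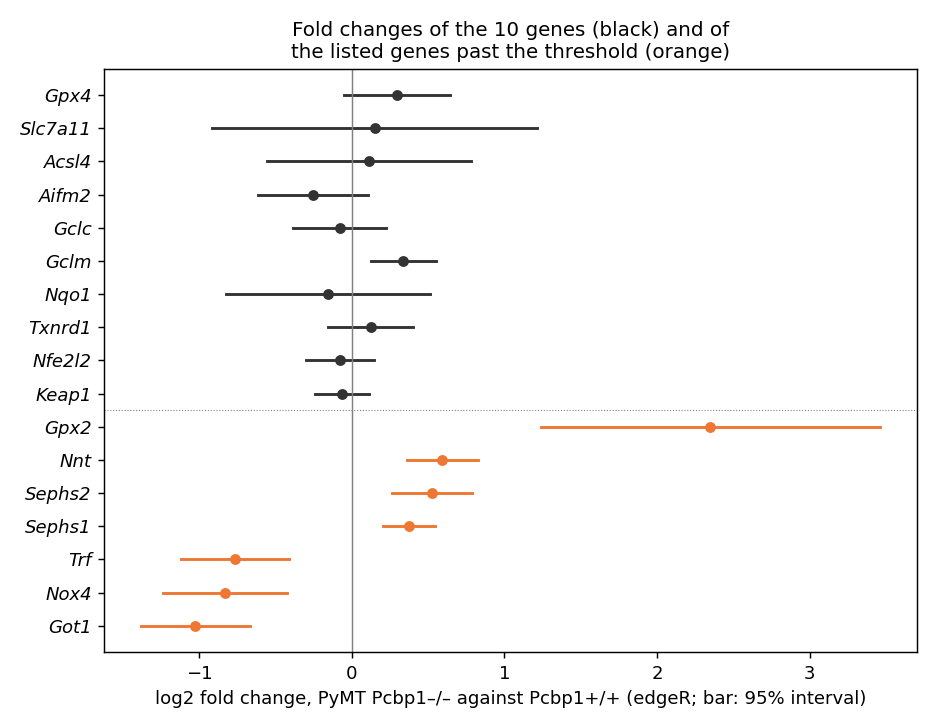
Log2 fold change of PyMT *Pcbp1*–/– against PyMT *Pcbp1*+/+ tumors (horizontal axis, edgeR; points are estimates, bars 95% intervals) for the 10 genes in black and for the 7 genes of the surrounding pathway lists with an adjusted p under 0.05 in orange. The interval of *Gclm* (0.13 to 0.55) is the only one of the 10 that leaves out 0.

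The surrounding pathways were covered by 5 lists with 147 distinct genes tested, 14 of them in more than 1 list. An adjusted p under 0.05 was reached by 4 genes that were higher and 3 that were lower in PyMT *Pcbp1*–/– tumors, 4.76% of the 147 beside 2.27% of all genes tested. This count of 7 fell to 2 (1.36%) without PyMT *Pcbp1*–/– replicate 3, 4 or 5 or PyMT *Pcbp1*+/+ replicate 1 or 4. It fell to 3 without PyMT *Pcbp1*–/– replicate 1 or PyMT *Pcbp1*+/+ replicate 3, and to 4 without PyMT *Pcbp1*–/– replicate 6. The calls over all genes also fell in these fits, and the count was 9 without PyMT *Pcbp1*–/– replicate 2. DESeq2 called 14 of the 147 (9.52%, beside 6.32% over all genes), and limma-voom with quality weights 21 (14.3%, beside 11.2%). At an unadjusted p under 0.05 the share was 26.5% beside 18.7%, and the median log2 fold change was 0.02. No set test was made, and these counts describe the lists.

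Among 32 NRF2 target genes tested, 1 rose, 0 fell and 31 did not pass in edgeR (3.12% called, beside 2.27% of all genes tested), with a median log2 fold change of 0.06. This median was 0.20 without PyMT *Pcbp1*+/+ replicate 1 and 0.014 without PyMT *Pcbp1*+/+ replicate 3. DESeq2 and limma-voom with sample quality weights each called 2 (6.25%) higher and 0 lower, adding *Akr1b8* (chosen after its values were seen), where they called 6.32% and 11.2% of all genes tested. In limma on log2(CPM + 1) 1 was higher and 0 lower. The gene that rose was *Gpx2*, a glutathione peroxidase best known from gut epithelium, with CPM between 1.80 and 7.17 in PyMT *Pcbp1*–/– tumors and 1.28, 1.33, 0.0876, 1.00 and 0.268 in control replicates 1 to 5. The groups did not overlap, although counts were as low as 1, and the log2 fold change was 2.35 (95% interval 1.24 to 3.46, edgeR adjusted p = 0.0348). The adjusted p of *Gpx2* lay between 0.000267 and 0.139 over the 22 alternatives; of the fits with a single tumor left out it passed only without PyMT *Pcbp1*–/– replicate 2 or PyMT *Pcbp1*+/+ replicate 2. *Gstm2*, a glutathione transferase, was at a log2 fold change of 1.03 (adjusted p = 0.117) and *Ugt1a6a*, a glucuronosyltransferase, one of 0.87 (adjusted p = 0.301); neither passed. *Fth1*, the ferritin heavy chain and the most abundant gene of the list, stood at 426 ± 136 CPM (SD, n = 6) and 318 ± 109 CPM (SD, n = 5) in PyMT *Pcbp1*–/– and PyMT *Pcbp1*+/+ tumors, with a log2 fold change of 0.40 (95% interval -0.14 to 0.94). Single tumors set the size of the *Fth1* difference, which was 0.24 without PyMT *Pcbp1*–/– replicate 1 and 0.67 without PyMT *Pcbp1*+/+ replicate 5.

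In the list of 18 genes that control KEAP1 and NRF2, 0 passed in edgeR, while 7 (38.9%, beside 18.7% of all genes tested) had an unadjusted p under 0.05, 6 of them with negative fold changes. DESeq2 and limma-voom with sample quality weights each called 3 of the 18 lower and 1 higher, *Rbx1* (chosen after its values were seen), where they called 6.32% and 11.2% of all genes tested. Limma on log2(CPM + 1) called 0. The median log2 fold change was 0.02. *Mafg*, a small MAF partner of NRF2, stood at 95.6 ± 9.31 CPM (SD, n = 6) against 126 ± 25.7 CPM (SD, n = 5), with a log2 fold change of -0.39 (edgeR adjusted p = 0.0969). *Btrc*, a ubiquitin ligase adaptor for NRF2, was at -0.36 (adjusted p = 0.0978), and *Bach2*, of the BACH family of repressors, at -0.36 (adjusted p = 0.105). All 6 PyMT *Pcbp1*–/– tumors were below the control mean for *Mafg*, *Btrc* and *Bach2*, and each of these passed in 2 of 22 alternatives, DESeq2 and limma-voom with sample quality weights. *Nfe2l1*, the most abundant gene of the list and a relative of NRF2, had a log2 fold change of 0.03 (95% interval -0.18 to 0.24).

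Among 51 ferroptosis genes tested, 0 rose, 3 fell and 48 did not pass in edgeR (5.88% called, beside 2.27% of all genes tested), with a median log2 fold change of 0.01. The balance depended on the tool: DESeq2 called 3 lower and 1 higher, limma-voom with sample quality weights 3 lower and 5 higher, and limma on log2(CPM + 1) 2 lower and 0 higher. These were 7.84% of the list in DESeq2 and 15.7% in limma-voom, beside 6.32% and 11.2% of all genes tested, so that the added calls came with more calls everywhere. The lower genes were among those edgeR called, and the higher ones, named after their values were seen, were *Cisd1* in both tools and *Acsl3*, *Elovl5*, *Chmp6* and *Pebp1* in limma-voom only. *Got1*, the cytosolic aspartate transaminase, lay between 3.00 and 4.17 CPM in PyMT *Pcbp1*–/– tumors and at 9.41, 5.41, 7.36, 6.47 and 8.31 CPM in control replicates 1 to 5. Each PyMT *Pcbp1*–/– tumor was below each control, the log2 fold change was -1.02 (95% interval -1.38 to -0.67, edgeR adjusted p = 0.00742), and *Got1* passed in all 22 alternatives. *Trf*, the iron carrier transferrin, lay between 306 and 534 CPM in PyMT *Pcbp1*–/– tumors and at 669, 675, 611, 717 and 831 CPM in control replicates 1 to 5, again without overlap, with a log2 fold change of -0.77 (95% interval -1.12 to -0.41, edgeR adjusted p = 0.0322). *Nox4*, an NADPH oxidase, stood at 7.21 ± 1.57 CPM (SD, n = 6) against 13.0 ± 3.69 CPM (SD, n = 5), without overlap, with a log2 fold change of -0.83 (95% interval -1.24 to -0.42, edgeR adjusted p = 0.0418). With single tumors left out, *Trf* passed in 4 of 11 fits (without PyMT *Pcbp1*–/– replicate 1, 2 or 6 or PyMT *Pcbp1*+/+ replicate 2), with an adjusted p up to 0.0782. *Nox4* passed in 3 of 11 (without PyMT *Pcbp1*–/– replicate 2 or PyMT *Pcbp1*+/+ replicate 3 or 5), with an adjusted p up to 0.104, and also missed the threshold with library size only, without a filter on low counts and in limma on log2 CPM. *Scd1*, a fatty acid desaturase and the most abundant gene of the list, was at -0.05 (95% interval -0.59 to 0.50).

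Of 38 glutathione and thioredoxin genes tested, 2 rose, 0 fell and 36 did not pass in edgeR (5.26% called, beside 2.27% of all genes tested), with a median log2 fold change of 0.11. DESeq2 and limma on log2(CPM + 1) also called 2 higher and 0 lower, and limma-voom with sample quality weights 4 higher and 0 lower, adding *Gpx7* and *Chac2*, the latter chosen after its values were seen. These were 5.26% of the list in DESeq2 and 10.5% in limma-voom, beside 6.32% and 11.2% of all genes tested. Beside *Gpx2*, which this list shares, *Nnt* rose, the mitochondrial transhydrogenase that supplies NADPH and a gene known to differ between C57BL/6 substrains. The paper describes crosses with *Pcbp1*(fl/fl) or with *Pcbp1*(wt/wt) females, so that genotype and substrain background cannot be told apart here. The part of background in the level of *Nnt* was not tested. *Nnt* lay between 22.5 and 30.0 CPM in PyMT *Pcbp1*–/– tumors and at 16.7, 18.1, 14.98, 19.1 and 17.998 CPM in control replicates 1 to 5. The groups did not overlap, the log2 fold change was 0.59 (95% interval 0.36 to 0.82, edgeR adjusted p = 0.0150), and *Nnt* passed in all 22 alternatives. *Gpx7*, a peroxidase of the endoplasmic reticulum, did not pass in edgeR, at 0.75 (adjusted p = 0.224). The call on *Gpx7* turned on the tool and on a single tumor, as it passed in limma-voom with sample quality weights (1.14, adjusted p = 0.0106) and without PyMT *Pcbp1*+/+ replicate 2 (1.19, edgeR adjusted p = 0.0195). *Gpx1*, the most abundant gene of the list, had a log2 fold change of 0.11 (95% interval -0.08 to 0.30).

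Of 23 selenoprotein genes tested, which include factors that make selenoproteins, 3 rose, 0 fell and 20 did not pass in edgeR (13.0% called, beside 2.27% of all genes tested), with a median log2 fold change of 0.02. *Gpx2*, given above, was 1 of the 3. Calls in either direction numbered 0 without PyMT *Pcbp1*–/– replicate 1, 3, 4 or 5 or PyMT *Pcbp1*+/+ replicate 1, 3 or 4. They numbered 1 without PyMT *Pcbp1*–/– replicate 6, 2 without PyMT *Pcbp1*+/+ replicate 2 or 5, and 3 without PyMT *Pcbp1*–/– replicate 2. DESeq2 called 3 higher and 1 lower, limma-voom with sample quality weights 3 higher and 2 lower, and limma on log2(CPM + 1) 2 higher and 0 lower. These were 17.4% of the list in DESeq2 and 21.7% in limma-voom, beside 6.32% and 11.2% of all genes tested. *Sephs2*, which makes the selenium donor for selenocysteine, stood at 75.7 ± 12.1 CPM (SD, n = 6) against 52.5 ± 4.52 CPM (SD, n = 5), with a log2 fold change of 0.52 (95% interval 0.26 to 0.79, edgeR adjusted p = 0.0453). Its paralog *Sephs1* stood at 53.9 ± 3.21 CPM (SD, n = 6) against 41.5 ± 3.67 CPM (SD, n = 5), without overlap, with a log2 fold change of 0.38 (95% interval 0.20 to 0.55, edgeR adjusted p = 0.0319). All 6 PyMT *Pcbp1*–/– tumors exceeded the control mean for *Sephs1* and *Sephs2*. With single tumors left out, *Sephs2* passed in 2 of 11 fits (without PyMT *Pcbp1*–/– replicate 6 or PyMT *Pcbp1*+/+ replicate 5), with an adjusted p up to 0.112, and also missed the threshold without a filter on low counts and in limma on log2 CPM. *Sephs1* passed in 3 of 11 (without PyMT *Pcbp1*–/– replicate 2 or PyMT *Pcbp1*+/+ replicate 2 or 5), with an adjusted p up to 0.0887. The lower calls were *Selenon* in both tools and *Secisbp2* in limma-voom, both chosen after their values were seen. *Selenon* stood at 39.2 ± 4.75 CPM (SD, n = 6) against 53.3 ± 5.18 CPM (SD, n = 5), without overlap, with a log2 fold change of -0.44 (95% interval -0.67 to -0.21), and just missed the threshold in edgeR (adjusted p = 0.0501).

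Across the 11 tumors, *Nqo1* and *Nfe2l2* had the highest r of the 45 pairs of the 10 genes, with Pearson's r = 0.79 (permutation p = 0.00327) and Spearman's rho = 0.84 (permutation p = 0.00216) of TMM-scaled log2(CPM + 0.5). After Benjamini-Hochberg adjustment over all pairs the permutation p was 0.147 for r and 0.0972 for rho, so that neither passed. Without PyMT *Pcbp1*–/– replicates 1 and 6, the tumors farthest from the median of *Nqo1*, r was 0.67, and after subtraction of the group means it was 0.78. The lowest pair was *Gpx4* and *Keap1*, with r = -0.67 (permutation p = 0.0244, adjusted 0.366) and rho = -0.68 (permutation p = 0.0250, adjusted 0.564), and r fell to -0.40 without PyMT *Pcbp1*–/– replicate 5 and PyMT *Pcbp1*+/+ replicate 3. After subtraction of the group means other pairs stood at the ends, *Gclm* and *Keap1* at 0.83 (0.28 before) and *Aifm2* and *Nfe2l2* at -0.78 (-0.56 before), with *Gpx4* and *Keap1* at -0.63. Of the 45 pairs 22 had r above 0 and 23 below 0, the median was -0.01, and 0 passed the adjusted permutation test for r or rho. Joint variation of the 10 genes was thus not shown, and with 11 tumors this test can miss pairs that vary together.

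**Figure D3:**
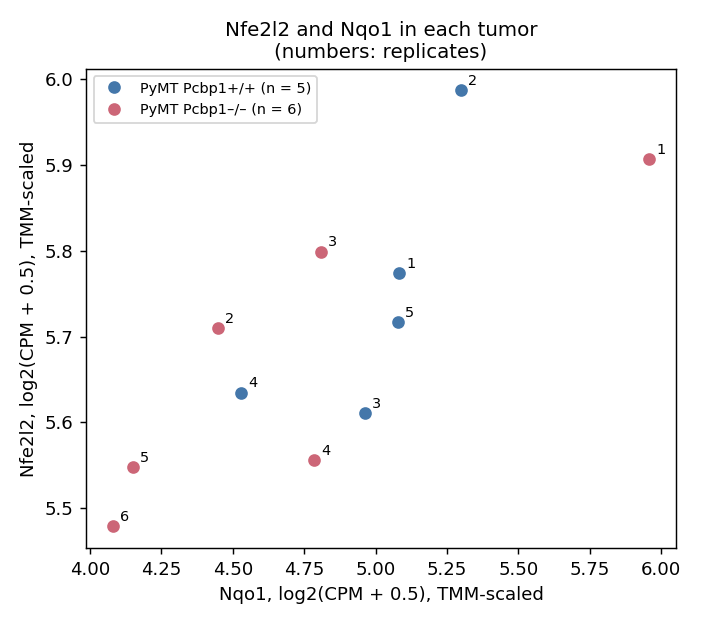
TMM-scaled log2(CPM + 0.5) of *Nfe2l2* (vertical axis) against *Nqo1* (horizontal axis) in each tumor, PyMT *Pcbp1*+/+ in blue (n = 5) and PyMT *Pcbp1*–/– in red (n = 6), with replicate numbers. PyMT *Pcbp1*–/– replicate 1 has the highest *Nqo1* and PyMT *Pcbp1*–/– replicate 6 the lowest of both genes, with r = 0.79 over the 11 tumors.

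Among all genes tested, the pair most like each of the 10 over the 11 tumors had r of TMM-scaled log2(CPM + 0.5) between 0.88 and 0.99, picked as the highest of 19232 and given without a test. For *Gpx4* these were *Tmem64* (r = 0.99) and *Puf60* (r = 0.95), for *Slc7a11* *Paip2* (r = 0.90) and *Lpcat1* (r = 0.89), and for *Aifm2* *Bicd1* (r = 0.93) and *Taok3* (r = 0.91). For *Acsl4* they were *Srp54b* (r = 0.96) and *Pafah2* (r = 0.94), of which *Srp54b* may share reads with near-identical paralogs. The glutamate-cysteine ligase subunits were most like *Zfp595* (r = 0.96) and *Vps33a* (r = 0.94) for *Gclm* and RP23-204A8.1 (r = 0.91) and *Slc7a2* (r = 0.91) for *Gclc*. *Nqo1* was most like *Nisch* (r = 0.94) and *Zfp593* (r = 0.93), and *Txnrd1* most like *Fgd3* (r = 0.92) and *Ube2r2* (r = 0.91). The regulators were most like AC153638.1 (r = 0.96) and *Zfp777* (r = 0.93) for *Nfe2l2*, the former a processed pseudogene, and *Otub2* (r = 0.90) and *Nap1l3* (r = 0.88) for *Keap1*. No gene was among the nearest of more than 1 member.

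The core of the antioxidant response element, TGACNNNGC, to which NRF2 binds with small MAF proteins, was searched on both strands of RefSeq promoters (GRCm38.p6). Windows ran from 250 bases before to 50 bases after each annotated start, of which a gene can have more than 1. A gene was counted when any of its windows held the motif. The motif was present in 3 of the 9 members with a promoter entry, *Gclm*, *Txnrd1* and *Nfe2l2*, and in 14.0% of the 27025 genes with an entry. For *Txnrd1* it was in 1 of 3 windows, chr10:82858956-82859255, which lies inside the gene and not at its first base, chr10:82833951. *Gclc* had no entry. By list, the motif was in 10 of 33 NRF2 targets (30.3%), 3 of 17 KEAP1 and NRF2 control genes (17.6%), 6 of 38 ferroptosis genes (15.8%), 7 of 31 glutathione and thioredoxin genes (22.6%) and 1 of 25 selenoprotein genes (4.0%). The matches in the 3 members are shown because these promoters hold the letters NRF2 is known to recognize; capitals mark the motif, each is read 5′ to 3′ on the minus strand with 10 bases on either side, and a match does not by itself make a binding site.
*Gclm*, chr3:122245413-122245441: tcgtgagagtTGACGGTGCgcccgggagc
*Txnrd1*, chr10:82859104-82859132: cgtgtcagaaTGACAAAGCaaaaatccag
*Nfe2l2*, chr2:75704885-75704913: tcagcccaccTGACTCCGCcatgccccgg

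Marker lists of other cell types were set beside the members over the 11 tumors, and 0 of 110 relations passed the adjusted permutation test for r or rho. The 3 lists with the largest r with *Gclm* in either direction, picked for that, are given as description. The 8 macrophage markers, led by *Lyz2* and with none at 0, summed to 525, 375, 400, 282, 320 and 428 CPM in knockout replicates 1 to 6 and 312, 179, 376, 264 and 167 CPM in control replicates 1 to 5. All 8 had positive log2 fold changes with a median of 0.29. Single tumors moved this median, to 0.15 without control replicate 5, 0.17 without knockout replicate 1 and 0.43 without control replicate 3. Of these markers 0 passed in edgeR on all 11 tumors and 1 had an unadjusted p under 0.05. DESeq2, limma-voom with sample quality weights and limma on log2(CPM + 1) each called 1 of the 8 markers (12.5%), *Lyz2*. Over all genes tested they called 6.32%, 11.2% and 1.66%. Their sum and *Gclm* had r = 0.77 (permutation p = 0.00591) and rho = 0.73 (permutation p = 0.0150), and over the 110 relations the adjusted permutation p was 0.562 for r and 0.701 for rho. This r was 0.57 without PyMT *Pcbp1*+/+ replicates 2 and 5, 0.56 after subtraction of the group means and 0.37 within PyMT *Pcbp1*–/– tumors. The 5 erythroid markers, led by *Hbb-bs* and with none at 0, summed to 21.6, 23.8, 21.4, 17.97, 32.7 and 28.5 CPM in knockout replicates 1 to 6 and 27.9, 12.4, 13.2, 9.10 and 13.2 CPM in control replicates 1 to 5. Erythroid markers and *Gclm* had r = 0.69 (permutation p = 0.0184, adjusted 0.562) and rho = 0.65 (permutation p = 0.0377, adjusted 0.701), with r at 0.50 without PyMT *Pcbp1*+/+ replicates 2 and 4, 0.35 after subtraction of the group means and -0.23 within PyMT *Pcbp1*–/– tumors. Interferon-stimulated genes, 10 of 10 of them detected and led by *Irf7*, summed to 107, 56.5, 81.8, 65.7, 70.3 and 112 CPM in knockout replicates 1 to 6 and 506, 420, 676, 515 and 150 CPM in control replicates 1 to 5. Of these 9 fell and 0 rose in edgeR, where 1.66% of all genes tested fell and 0.608% rose, and their median log2 fold change was -2.71. Their relation with *Gclm*, r = -0.68 over all tumors (permutation p = 0.0221, adjusted 0.562) and rho = -0.68 (permutation p = 0.0255, adjusted 0.701), had r at 0.09 after subtraction of the group means. The part of macrophage, erythroid or interferon content in the level of *Gclm* was not tested.

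Of the 63 genes tested in the marker lists other than interferon, macrophages included, 0 passed in edgeR and 10 (15.9%, beside 18.7% of all genes tested) had an unadjusted p under 0.05. DESeq2 called 5 (7.94%, beside 6.32%), limma-voom with sample quality weights 9 (14.3%, beside 11.2%) and limma on log2(CPM + 1) 1 (1.59%, beside 1.66%). Of the 10 with an unadjusted p under 0.05, 5 were among the 8 dividing cell markers (led by *Mki67*), which all had positive log2 fold changes with a median of 0.45 and summed to 623 ± 90.6 CPM (SD, n = 6) against 448 ± 77.0 CPM (SD, n = 5). DESeq2 called 4 of these 8, limma-voom with sample quality weights 6, and edgeR and limma on log2(CPM + 1) 0. The median log2 fold change was 0.67 for the 5 erythroid markers and 0.29 for 7 fibroblast markers (led by *Col1a1*). It was -0.80 for 7 adipocyte markers (led by *Plin4*), -0.20 for 6 endothelial markers (led by *Cdh5*), -0.10 for 4 T cell markers tested (led by *Cd8a*), -0.07 for 10 luminal markers (led by *Kit*) and 0.00 for 8 basal markers (led by *Mylk*). Single tumors set some of these medians. Without PyMT *Pcbp1*+/+ replicate 3 the adipocyte median was 0.48, with sums of 28.5 ± 24.6 CPM (SD, n = 6) against 27.3 ± 10.4 CPM (SD, n = 4), so that no lower adipocyte content can be read from it. Without PyMT *Pcbp1*+/+ replicate 1 the basal median was 0.58, with sums of 463 ± 161 CPM (SD, n = 6) against 343 ± 138 CPM (SD, n = 4), and 0 basal markers passed in that fit. The luminal median was 0.02 without PyMT *Pcbp1*–/– replicate 1. With single tumors left out, the fibroblast median ranged from 0.13 (without knockout replicate 6) to 0.44 (without knockout replicate 5). The erythroid median ranged from 0.49 (without knockout replicate 5) to 1.00 (without control replicate 1). The endothelial median ranged from -0.28 (without knockout replicate 2) to -0.11 (without control replicate 2). For T cell markers it ranged from -0.26 (without control replicate 5) to 0.01 (without control replicate 4). B cell markers were too scarce to test, with *Pax5* the most abundant at 0.729 CPM.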

How the data were processed

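RNA of 11 tumors was sequenced from poly(A)-enriched, stranded libraries in a single labelled batch. The authors aligned reads to GRCm38 with Bowtie2 in Partek and deposited estimated counts, not exactly whole in 17.9% to 19.7% of values per tumor (off by more than 0.01 in 13.4% to 14.3%), and CPM, each estimated count scaled by its tumor's total. The counting method and annotation version are not given in the sources used here. The counts, after rounding, went into edgeR 4.0.16 (R 4.3.3): TMM, the default filter (19232 genes), quasi-likelihood test with genotype as the only term, Benjamini-Hochberg adjustment over all genes tested. Alternatives were DESeq2 1.42.0, limma 3.58.1 (voom with quality weights; log2 CPM with a pseudocount of 1 or 0.1), upper-quartile factors, library size alone, another filter (none; 1 CPM in 5 tumors), replicate block and each tumor left out; 2 more, protein-coding genes only and 10 tumors without the block, were chosen after seeing the data. Members and lists were chosen with earlier results of these data known. Named genes were, per pathway list, those with an adjusted p under 0.05, filled to 3 by the size of the log2 fold change, the most abundant gene of each list, and the 2 genes with the highest r with each member. Correlations used 100000 permutations (two-sided), added after the design, which gave them without p. Floors cover counting error only. Single-nuclei data were not analysed here.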

Additional observations from a re-analysis of the deposited data

Results flagged for a closer look

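In 10 of 90 groups of tumors examined, 1 tumor lay far from the rest of its group, where chance gives about 1 in 20 if values are normally distributed and independent, which genes and lists of the same tumors are not. Among the 10 genes these were *Nqo1* in PyMT *Pcbp1*–/– replicate 1, at 62.4 CPM with the next tumor at 27.5 CPM, and *Gpx4* in PyMT *Pcbp1*–/– replicate 5, at 30.2 CPM with the next at 22.0 CPM.

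PyMT *Pcbp1*–/– replicate 1 also had the lowest sum of dividing cell markers of its group, 445 CPM with the next at 622 CPM. The same tumor had the lowest luminal sum of all 11, 1374 CPM with the next at 1716 CPM, and the highest macrophage (525 CPM) and endothelial (82.8 CPM) sums. The part of these in its *Nqo1* level was not tested.

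In the pathway lists, *Fth1* stood at 510 CPM in PyMT *Pcbp1*+/+ replicate 5, with the next tumor at 285 CPM. *Gpx7* stood at 2.25 CPM in PyMT *Pcbp1*–/– replicate 2, with the next at 3.20 CPM, and at 3.98 CPM in PyMT *Pcbp1*+/+ replicate 2, with the next at 1.83 CPM.

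In PyMT *Pcbp1*+/+ replicate 1, basal epithelial markers summed to 1161 CPM, with the next tumor at 429 CPM, and erythroid markers to 27.9 CPM, with the next at 13.2 CPM. Adipocyte markers summed to 141 CPM in PyMT *Pcbp1*+/+ replicate 3, with the next at 37.3 CPM, and B cell markers to 2.09 CPM in PyMT *Pcbp1*–/– replicate 6, with the next at 1.03 CPM.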

How the results depend on the processing

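Over 22 alternatives, 8 of the 10 genes, all but *Slc7a11* and *Acsl4*, kept the sign of their fold change. The fit of 10 tumors without the replicate block is the same as that without PyMT *Pcbp1*–/– replicate 6, and is counted under both names. With single tumors left out, the log2 fold change of *Slc7a11* ranged from -0.073 to 0.62, that of *Acsl4* from -0.081 to 0.46 and that of *Scd1* from -0.18 to 0.17. It ranged from 0.17 to 0.40 for *Gpx4*, -0.36 to -0.17 for *Aifm2*, -0.15 to -0.023 for *Gclc*, 0.28 to 0.39 for *Gclm*, -0.13 to -0.0090 for *Nfe2l2* and -0.096 to -0.016 for *Keap1*. In the same fits the median of the KEAP1 and NRF2 control list ranged from -0.036 to 0.055 and that of ferroptosis genes from -0.0024 to 0.057. The median of glutathione and thioredoxin genes ranged from 0.063 to 0.13 and that of selenoprotein genes from -0.019 to 0.053. Of the 10 genes, 1, *Gclm*, was called by DESeq2 (log2 fold change 0.34) and by limma-voom with sample quality weights (0.30), and 0 by the others. edgeR called 319 genes lower and 117 higher, DESeq2 730 and 486, and limma-voom 1190 and 968, so that the higher share of calls was 26.8%, 40.0% and 44.9%. With single tumors left out, lower calls ranged from 144 to 389 and higher calls from 41 to 187; both fell by over 1.5 times without PyMT *Pcbp1*–/– replicate 3, 4, 5 or 6 or PyMT *Pcbp1*+/+ replicate 1, 3 or 4, and higher calls rose to 187 without PyMT *Pcbp1*+/+ replicate 2. The causes were not tested.

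Replicate numbers were not shown to pair the tumors, with correlations of same-numbered deviations from -0.16 to 0.31. With the replicate block, 118 genes were lower and 42 higher; the same 10 tumors without the block gave 212 and 69. None of the 10 genes was called with the block. *Gpx2*, *Nox4* and *Sephs1* missed the threshold in both of these fits. Counts per tumor were low for *Slc7a11* (between 5 and 38) and in part for *Gpx2* (between 1 and 101). The part of counting error in the spread of these genes was not tested.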
